A study of Mus musculus with 8 samples.

Results

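Cholesterol synthesis and its control by the transcription factor SREBP2 were followed through 27 genes in the small intestine of suckling mice given arsenic or vehicle. The genes were taken by symbol from a written list of enzymes, SREBP2 pathway proteins and sterol-esterifying enzymes, and all 27 were found among the 24411 gene symbols of the count table and were well enough counted to be tested, with 15298 genes tested in all. The list does not hold every enzyme of the pathway. The pools given arsenic came from pups dosed at 10 mg/kg, and those given vehicle served as controls, with 24 h as the labelled time in each group. All animals were hUGT1 transgenic mice, which carry the human UGT1 locus, aged 14 days. Each of 4 libraries per group held RNA pooled from 3 mice, so that 12 mice stood behind each group and the spread given is that between pools. Neither the gut segment, the route of dosing nor the start of the 24 h is labelled.

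Cells make cholesterol from acetyl-CoA, first as mevalonate, then as isoprenoid units that are joined into squalene, closed into the ring of lanosterol and trimmed to cholesterol. SREBP2 turns on the genes of this route when sterols in the endoplasmic reticulum are low. It is held there with its escort SCAP by the INSIG proteins while sterols are plentiful, and is otherwise carried to the Golgi and cut free to enter the nucleus. The suckling enterocyte takes up milk cholesterol, makes its own, and esterifies much of it for export in chylomicrons.

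Of the 27 genes, 18 were higher and 5 lower with arsenic (edgeR quasi-likelihood test, adjusted p below 0.05 over all tested genes), while among all tested genes 32.3% were higher and 33% lower, 65.3% in all. The median log2 change was 0.28 over the 27 genes and -0.03 over all tested genes. The changes were moderate. Of the 27 genes 8 were at least 1.5-fold higher and 2 at least 1.5-fold lower, where 9.14% and 10.6% of all tested genes were, and the rises ran from 1.14-fold for Acat2 to 2.06-fold for Mvk. In 17 genes every arsenic pool lay above every vehicle pool and in 5 genes every arsenic pool lay below, while 30.1% and 29.3% of all tested genes were separated in these ways. The rise was found in mevalonate, squalene and ring-trimming enzymes, whereas the mitochondrial thiolase Acat1 and the esterifying enzyme Soat1 fell most. Fewer cells of a type and less RNA per cell cannot be told apart in such bulk samples. Arsenic replicate 3 had the least Xist and most Y-linked counts and vehicle replicate 4 the reverse, and without both of them 18 of the 27 genes were again higher and 4 lower.

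Promoters of 4 of these genes are shown for the motifs known from sterol control. SREBP2 binds sterol regulatory elements next to sites of the factors NF-Y, which reads CCAAT, and SP1, which reads GGGCGG. Of the 27 genes 21 had an entry in the RefSeq table of promoters (GRCm38.p6), and the search covered 250 bases before and 50 after each start, on each strand. Sqle, Fdft1, Fdps, Stard4, Acat1 and Soat2 had no entry and were not searched. A gene with several listed starts was counted as holding a motif where any of its windows did. The sequences below end at the base before the start, read 5′ to 3′ along the gene's strand. Capitals mark the sterol regulatory core TCACNCCAC and the letters CCAAT, which appear as ATTGG when on the opposite strand. Hmgcs1 is shown as the one gene holding the sterol core, Mvk and Mvd as mevalonate enzymes that rose, and Insig2 as a control gene that fell. Insig2 has 3 listed starts, and the window shown is the one that lies outside the annotated gene.
Hmgcs1 (chr13:119690101-119690350, plus strand): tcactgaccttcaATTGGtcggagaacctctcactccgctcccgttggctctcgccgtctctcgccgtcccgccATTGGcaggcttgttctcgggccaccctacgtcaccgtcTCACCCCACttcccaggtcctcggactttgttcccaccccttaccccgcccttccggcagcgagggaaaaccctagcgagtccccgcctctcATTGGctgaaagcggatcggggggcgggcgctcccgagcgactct
Mvk (chr5:114444019-114444268, plus strand): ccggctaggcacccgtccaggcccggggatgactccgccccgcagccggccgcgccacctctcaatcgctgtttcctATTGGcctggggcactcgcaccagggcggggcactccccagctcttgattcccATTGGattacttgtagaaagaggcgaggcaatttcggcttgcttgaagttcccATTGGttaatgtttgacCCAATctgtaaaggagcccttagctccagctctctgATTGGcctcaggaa
Mvd (chr8:122443423-122443672, minus strand): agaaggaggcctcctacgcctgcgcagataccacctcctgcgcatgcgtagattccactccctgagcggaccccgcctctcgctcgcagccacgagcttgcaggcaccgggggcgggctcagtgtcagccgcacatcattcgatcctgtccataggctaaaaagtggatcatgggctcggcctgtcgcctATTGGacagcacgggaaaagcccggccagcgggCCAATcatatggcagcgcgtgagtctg
Insig2 (chr1:121332590-121332839, minus strand): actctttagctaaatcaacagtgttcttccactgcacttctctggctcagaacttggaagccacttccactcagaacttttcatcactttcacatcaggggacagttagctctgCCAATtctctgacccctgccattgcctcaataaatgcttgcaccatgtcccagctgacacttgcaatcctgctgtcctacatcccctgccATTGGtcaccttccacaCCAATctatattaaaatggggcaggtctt

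The core TCACNCCAC was found in 1 of the 21 genes with a promoter entry, against 1.44% of all 27025 genes in the table, and it begins 137 bases before the Hmgcs1 start. The shorter CACCCCAC, which overlaps that core in Hmgcs1, was found in Hmgcs1 and Acat2 and in 3.3% of all genes. Only these exact letters were searched, so sterol elements that differ from them in any base were not counted. CCAAT was found in 19 of the 21 genes (90.5%), against 41.06% of all genes and 42.27% of the 11521 tested genes with an entry. Mvk held 5 CCAAT copies, Hmgcs1 3 of them upstream of its start, Mvd 2, and Insig2 3 in the window shown and 0 in its other 2 windows, which held GGGCGG where the window shown did not. GGGCGG was also found in 19 of the 21 genes, against 38.2% of all genes and 65.38% of tested genes, and the E-box CACGTG in 5 of 21 (23.8%), against 8.09% of all genes and 11.14% of tested genes. CCAAT thus occurred in genes that were higher and in Insig2, Ggps1, Sc5d and Soat1, which were lower. Acat2, which was higher, held none, and the remaining lower gene, Acat1, had no entry. These matches are descriptions of letters and not of binding.

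Levels are given as CPM, read counts scaled to a common library size with TMM correction for composition, in the order of replicates 1 to 4 where each pool is listed, and values after ± are SD over the 4 pools of a group. The acetyl-CoA thiolases open the route. Acat2, the cytosolic thiolase that joins acetyl-CoA units for sterol synthesis, rose slightly, and Acat1, the mitochondrial thiolase of ketone body and isoleucine metabolism, fell strongly. Acat1 stood at 182, 194, 194 and 196 CPM in arsenic pools, against 437, 492, 494 and 477 CPM in vehicle pools. Every arsenic pool lay far below every vehicle pool, a 2.48-fold lower level (log2 -1.31, SE 0.05, edgeR adjusted p = 1.48e-11). Acat2 stood at 28.3, 30.5, 28.2 and 27.8 CPM in arsenic pools, against 25.4, 24.9, 25.5 and 24.6 CPM in vehicle pools (log2 0.19, SE 0.05, edgeR adjusted p = 0.00245). These symbols are not those of the esterifying enzymes, which have also been called ACAT and are listed here as Soat1 and Soat2. Acat3, a close relative of Acat2, had between 4 and 10 counts in any library, so that few reads were assigned to it.

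**Figure D1:**
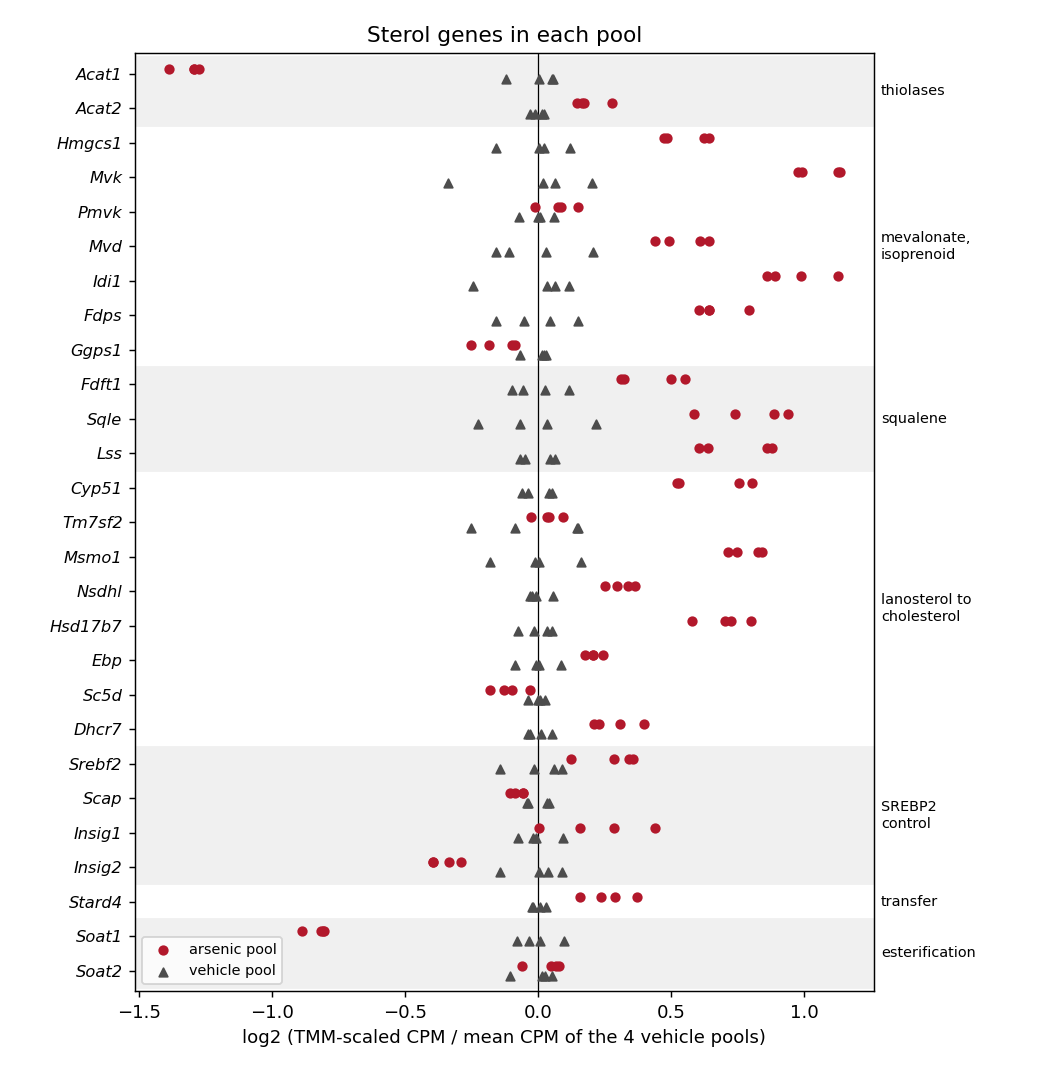
Each point is 1 pool: the horizontal axis gives log2 of its TMM-scaled CPM over the mean CPM of the 4 vehicle pools, and the 27 genes run down the page in pathway order, with arsenic pools as circles and vehicle pools as triangles. The circles lie wholly right of the triangles for 17 genes and wholly left of them for 5, with Acat1 and Soat1 farthest to the left.

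Mevalonate and isoprenoid enzymes followed, and 5 of 7 rose. Hmgcs1, the cytosolic HMG-CoA synthase, rose 1.47-fold. Hmgcs1 stood at 173, 175, 156 and 157 CPM in arsenic pools, against 122, 114, 100.4 and 113 CPM in vehicle pools (log2 0.56, SE 0.06, edgeR adjusted p = 5.41e-07). Mvk, mevalonate kinase, had the largest rise of the 27 genes. Mvk stood at 18.2, 18.1, 16.5 and 16.3 CPM in arsenic pools, against 9.55, 8.66, 6.55 and 8.39 CPM in vehicle pools. The lowest arsenic pool was well above the highest vehicle pool (log2 1.05, SE 0.09, edgeR adjusted p = 1.16e-07). The next kinase, Pmvk, did not pass the test, with 18.5 ± 0.835 CPM with arsenic and 17.6 ± 0.660 CPM with vehicle (SD, n = 4 each) and overlapping pools (log2 0.07, SE 0.06, edgeR adjusted p = 0.26). Mvd, the decarboxylase that makes isopentenyl diphosphate, rose 1.45-fold (log2 0.54, SE 0.08, edgeR adjusted p = 2.77e-05).

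Idi1, the isomerase of the isoprenoid units, and Fdps, which joins them into farnesyl diphosphate, rose as well. Idi1 stood at 22.04, 24.3, 20.2 and 20.6 CPM in arsenic pools, against 11.4, 12.1, 9.38 and 11.6 CPM in vehicle pools (log2 0.96, SE 0.08, edgeR adjusted p = 7.09e-08). Fdps stood at 48.6, 54.0, 48.6 and 47.3 CPM in arsenic pools, against 34.5, 32.1, 27.9 and 30.0 CPM in vehicle pools (log2 0.67, SE 0.06, edgeR adjusted p = 2.01e-07). In each of these genes the arsenic pools were all higher, with arsenic replicate 2 on top. Ggps1, which draws farnesyl diphosphate into geranylgeranyl diphosphate and so away from sterols, went the other way. Ggps1 stood at 22.7, 22.6, 20.3 and 21.3 CPM in arsenic pools, against 24.6, 24.5, 24.4 and 23.0 CPM in vehicle pools (log2 -0.15, SE 0.05, edgeR adjusted p = 0.02). The pools did not overlap, yet the call of Ggps1 was lost when arsenic replicate 3 (adjusted p = 0.0674), arsenic replicate 4 (0.069), vehicle replicate 2 (0.068) or vehicle replicate 3 (0.0553) was left out, without a filter (0.0518) and in DESeq2 (0.0568).

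All 3 genes that make squalene and close the ring rose. Fdft1, squalene synthase, stood at 46.0 ± 3.91 CPM with arsenic and 34.2 ± 2.28 CPM with vehicle (SD, n = 4 each; log2 0.42, SE 0.06, edgeR adjusted p = 2.82e-05). Sqle, the squalene epoxidase, changed more. Sqle stood at 53.7, 55.7, 48.5 and 43.6 CPM in arsenic pools, against 33.8, 29.8, 24.8 and 27.7 CPM in vehicle pools (log2 0.79, SE 0.09, edgeR adjusted p = 1.28e-06). Lss, which closes the epoxide into lanosterol, rose 1.68-fold. Lss stood at 42.4, 43.0, 36.4 and 35.5 CPM in arsenic pools, against 24.4, 24.1, 22.6 and 22.3 CPM in vehicle pools (log2 0.75, SE 0.07, edgeR adjusted p = 1.31e-07). In Sqle and Lss arsenic replicates 1 and 2 stood above arsenic replicates 3 and 4, and all 4 stood above the vehicle pools. Fdft1 shares 774 exon bases (18.3% of its exons) with the opposite-strand gene Ctsb in the annotation, and Ctsb itself was lower, with 799 ± 21.5 CPM with arsenic and 1425 ± 49.5 CPM with vehicle (log2 -0.84, SE 0.04, edgeR adjusted p = 5.69e-10). The sources used here do not name the strand setting of the counting, and its part in the Fdft1 values was not tested. Of partners found in the count table, smaller opposite-strand overlaps are annotated for Ggps1 with Arid4b (257 bases, 5.4% of its exons), Cyp51 with Akap9 (166 bases, 3.8%) and Lss with 4930483K19Rik (381 bases, 3.5%), and Arid4b (log2 -0.24) and Akap9 (log2 -0.13) were lower. Partners not in the count table share exon bases with Fdps (Gm43738, same strand, 1124 bases, 26.7%), Scap (5830462I19Rik, opposite strand, 985 bases, 13.2%), Hmgcs1 (Gm48342, opposite strand, 557 bases, 12.1%) and Idi1 (Gm48574, opposite strand, 323 bases, 9.2%).

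Of the 8 enzymes between lanosterol and cholesterol 6 rose, 1 fell and 1 did not pass. Msmo1, the methylsterol oxygenase, and Hsd17b7, the 3-ketosteroid reductase of the pathway, changed most in this stretch. Msmo1 stood at 63.4, 64.0, 58.7 and 60.1 CPM in arsenic pools, against 40.0, 35.9, 35.5 and 31.6 CPM in vehicle pools (log2 0.78, SE 0.06, edgeR adjusted p = 2.23e-08). Hsd17b7 stood at 43.2, 40.3, 41.0 and 37.0 CPM in arsenic pools, against 25.7, 25.4, 23.5 and 24.5 CPM in vehicle pools (log2 0.70, SE 0.05, edgeR adjusted p = 2.36e-08). Cyp51, the lanosterol demethylase that opens the stretch, was 1.58-fold higher, at 60.7 ± 6.2 CPM with arsenic and 38.5 ± 1.49 CPM with vehicle (SD, n = 4 each; log2 0.66, SE 0.06, edgeR adjusted p = 2.82e-07). The 4 pools of each group were separated in all 3 genes.

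The remaining enzymes of the stretch changed less. Nsdhl, which works in the demethylation complex with Msmo1 and Hsd17b7, rose 1.24-fold (log2 0.31). Ebp, the sterol isomerase, rose 1.16-fold (log2 0.21), and Dhcr7, the last reductase on the way to cholesterol, 1.22-fold (log2 0.29), each with separated pools. Sc5d, the desaturase just before Dhcr7, did not share in this. Sc5d stood at 84.8, 88.8, 83.0 and 80.0 CPM in arsenic pools, against 90.7, 91.2, 92.3 and 88.4 CPM in vehicle pools, and the highest arsenic pool overlapped the lowest vehicle pool (log2 -0.11, SE 0.04, edgeR adjusted p = 0.021). Its call was lost when arsenic replicate 4 (adjusted p = 0.122), vehicle replicate 2 (0.0739) or vehicle replicate 3 (0.079) was left out, without both pools at the extremes of Xist and Y-linked counts (0.0506), without a filter (0.0703) and in DESeq2 (0.0618). Tm7sf2, a sterol reductase, stood at 11.5 ± 0.397 CPM with arsenic and 11.2 ± 1.48 CPM with vehicle and did not pass (log2 0.03, SE 0.09, edgeR adjusted p = 0.816). It shares 532 exon bases (12.1% of its exons) with the same-strand gene Vps51. Vps51 stood at 38.9 ± 1.49 CPM with arsenic and 37.6 ± 1.11 CPM with vehicle (log2 0.05) and was not called. The part of this overlap in the Tm7sf2 values was not tested.

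**Figure D2:**
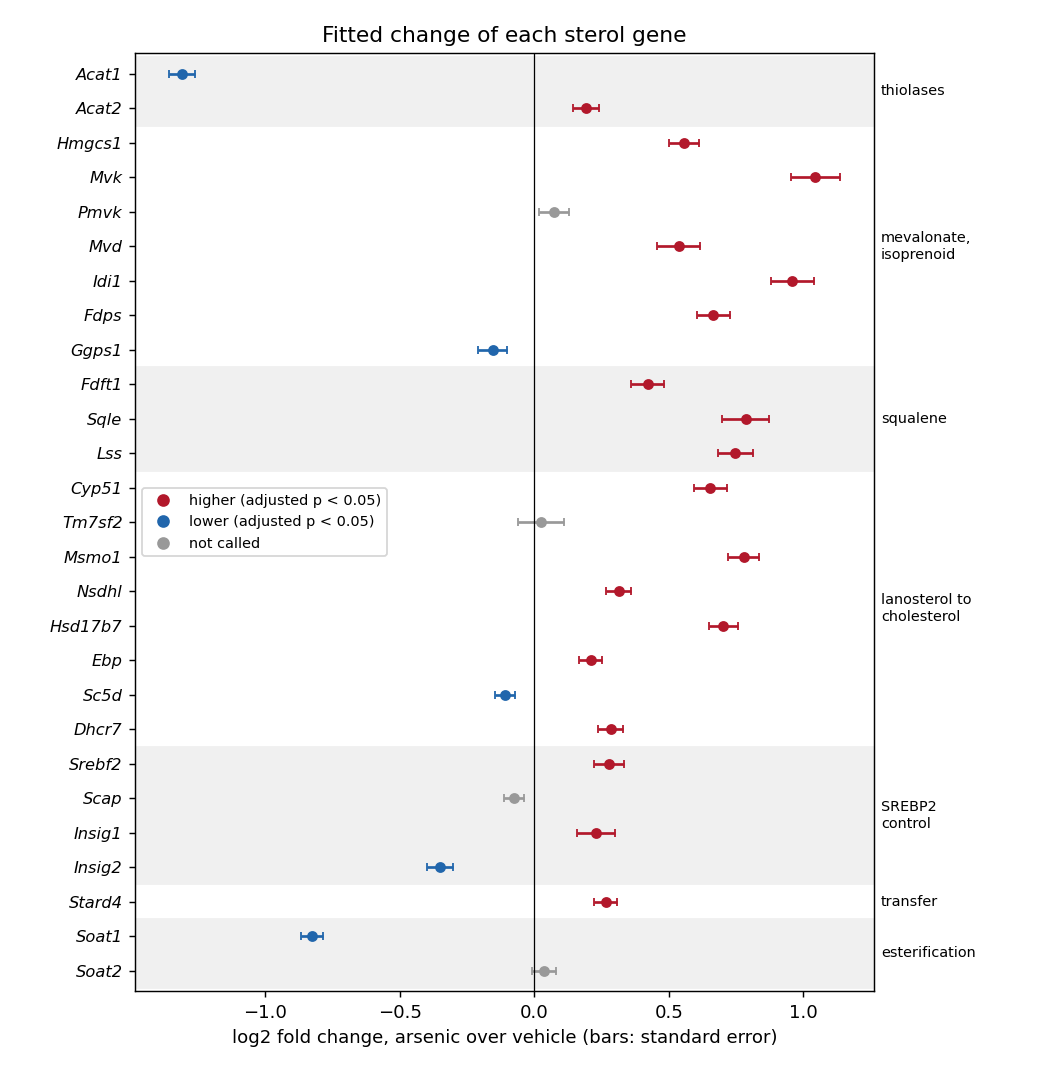
The fitted log2 fold change, arsenic over vehicle, of the 27 genes is shown with its standard error, red for genes called higher, blue for genes called lower and grey for genes not called. Mvk at 1.05 and Idi1 at 0.96 stand farthest to the right, and Acat1 at -1.31 and Soat1 at -0.83 farthest to the left.

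Within the control machinery, the SREBP2 gene and Insig1 rose while Insig2 fell. Srebf2 stood at 148, 150.0, 127 and 143 CPM in arsenic pools, against 124, 122, 106 and 116 CPM in vehicle pools (log2 0.28, SE 0.06, edgeR adjusted p = 0.000549). Srebf2, itself a target of the SREBP2 protein, was higher in every arsenic pool, with arsenic replicate 3 nearest to vehicle. Insig1, the retention protein whose gene is induced by SREBP2, varied more between arsenic pools than any other control gene. Insig1 stood at 118, 132, 97.2 and 108 CPM in arsenic pools, against 95.6, 104, 96.6 and 92.0 CPM in vehicle pools. Arsenic replicate 3 lay among the vehicle pools, and the rise was small (log2 0.23, SE 0.07, edgeR adjusted p = 0.0114). With each library left out in turn and under every other setting tried, the call of Insig1 held, with adjusted p from 0.000464 to 0.0459.

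Insig2, the retention protein whose gene, unlike Insig1, is not a classical SREBP2 target, was lower in every arsenic pool. Insig2 stood at 50.4, 46.9, 46.9 and 48.9 CPM in arsenic pools, against 55.9, 63.3, 65.8 and 61.8 CPM in vehicle pools (log2 -0.35, SE 0.05, edgeR adjusted p = 1.56e-05). Scap, the escort, stood at 58.2 ± 0.977 CPM with arsenic and 61.3 ± 1.88 CPM with vehicle (SD, n = 4 each), and although its arsenic pools lay just below its vehicle pools it did not pass the test (log2 -0.07, SE 0.04, edgeR adjusted p = 0.0815). Among the 16 alternatives Scap passed only with upper-quartile scaling (adjusted p = 0.0174).

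The log2 ratio of Insig1 to Insig2 within a pool was 1.23 ± 0.19 in arsenic pools and 0.65 ± 0.11 in vehicle pools (SD, n = 4 each), a difference of 0.57. The ratio was higher in all 4 arsenic pools than in any vehicle pool (exact permutation test over 70 splits, two-sided, p = 0.0286, the smallest p that 4 against 4 pools can give). For Srebf2 over Srebf1, the gene of the factor better known for fatty acid synthesis, the log2 ratio was -0.10 ± 0.11 in arsenic pools and -1.23 ± 0.20 in vehicle pools (SD, n = 4 each), a difference of 1.13 (exact permutation test, p = 0.0286). Srebf1 alone fell to 153 ± 12.3 CPM with arsenic, against 274 ± 19.7 CPM with vehicle. For Acat1 over Acat2 the log2 ratio was 2.73 ± 0.08 in arsenic pools and 4.24 ± 0.09 in vehicle pools (SD, n = 4 each), a difference of -1.50, and for Soat1 over Soat2 it was -1.51 ± 0.08 in arsenic pools and -0.64 ± 0.07 in vehicle pools (SD, n = 4 each), a difference of -0.86 (exact permutation test, p = 0.0286 for each). These 4 pairs were the only ones compared, and the values adjusted over them by Benjamini-Hochberg were 0.0286 as well. Acat1 and Acat2, and Srebf1 and Srebf2, each separated the groups in opposite directions, which fixes the separation of their ratios. Insig2 and Soat1 also separated the groups on their own. The ratio tests therefore add little to the results of the single genes. Since ratios are of CPM, their level depends on the lengths of the genes, and only their difference between groups is compared.

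**Figure D3:**
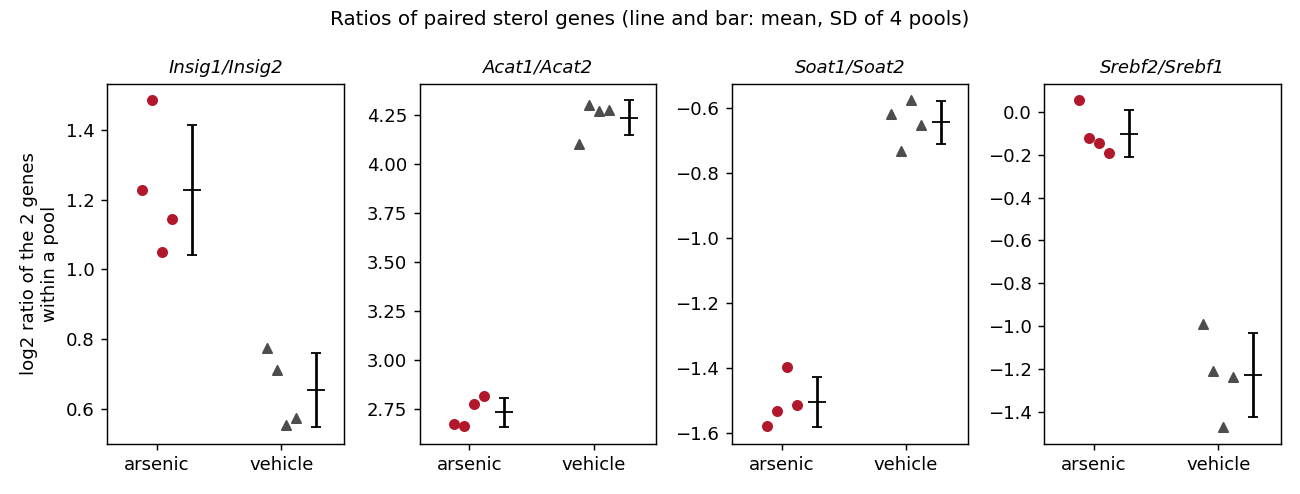
The log2 ratio of 2 genes within each pool is shown for 4 pairs, with arsenic pools left of vehicle pools, the mean and SD of 4 pools beside the points, and a separate vertical scale in each panel. The groups do not overlap in any of the 4 pairs, with Insig1/Insig2 and Srebf2/Srebf1 higher and Acat1/Acat2 and Soat1/Soat2 lower in arsenic pools.

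The esterifying enzymes differed from each other. Soat1, the acyltransferase found in most cells, fell 1.77-fold. Soat1 stood at 44.3, 46.8, 46.6 and 47.0 CPM in arsenic pools, against 77.7, 80.1, 87.7 and 82.4 CPM in vehicle pools (log2 -0.83, SE 0.04, edgeR adjusted p = 3.85e-10). No pool of either group came near the other group. Soat2, the form of the intestine and liver that esterifies cholesterol for lipoproteins, did not pass the test. Soat2 stood at 133, 135, 123 and 134 CPM in arsenic pools, against 119, 133, 131 and 129.6 CPM in vehicle pools (log2 0.04, SE 0.04, edgeR adjusted p = 0.487). Stard4, a carrier of sterol between membranes whose gene responds to SREBP2, rose. Stard4 stood at 118, 111, 102 and 107 CPM in arsenic pools, against 93.1, 91.5, 89.9 and 89.7 CPM in vehicle pools (log2 0.27, SE 0.04, edgeR adjusted p = 7.25e-05).

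Levels between genes are compared here per kb of exon in the GENCODE M21 annotation, as CPM per kb, which rests on the annotated and not the expressed transcripts. With arsenic Soat2 ranked highest of the 27 genes and Acat1 next, and with vehicle Acat1 ranked highest and Soat2 next. Acat1 stood at 50.9 ± 1.77 CPM per kb with arsenic and 126 ± 7.01 CPM per kb with vehicle, and Soat2 at 59.4 ± 2.55 CPM per kb with arsenic and 57.9 ± 2.75 CPM per kb with vehicle (SD, n = 4 each). Insig1 and Hmgcs1 followed in each group, and with arsenic they differed by less than their SD, at 36.8 ± 4.75 and 36.0 ± 2.25 CPM per kb. Soat1 ranked 24 of 27 with arsenic and 14 of 27 with vehicle. The lowest levels were those of Tm7sf2 with arsenic and of Lss with vehicle, at 2.62 ± 0.0901 and 2.16 ± 0.0990 CPM per kb. The 27 genes together, Acat1 included, took 0.165% to 0.178% of counts in arsenic pools and 0.173% to 0.179% in vehicle pools, whereas the 18 genes called higher summed to 1025 to 1173 CPM in arsenic pools and 758 to 841 CPM in vehicle pools, a separation that their choice fixes.

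**Figure D4:**
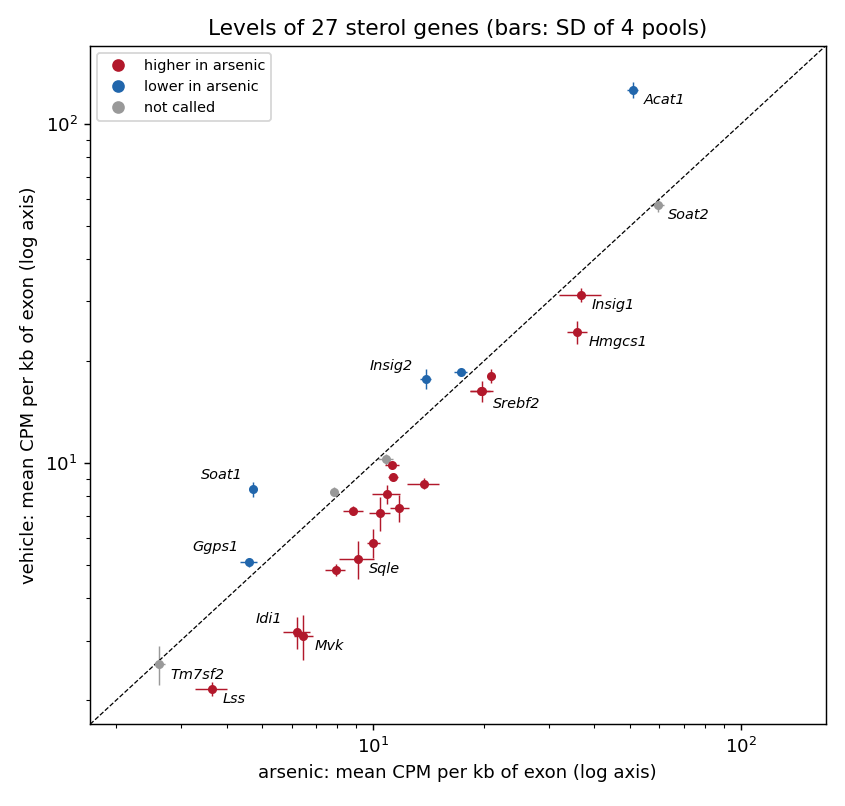
Mean CPM per kb of exon is plotted for the 27 genes with arsenic (horizontal, log axis) and vehicle (vertical, log axis), with the SD of 4 pools as bars and equality as the dashed line. Genes called higher lie below the line, Mvk, Idi1 and Lss among those at the low end, and Acat1 and Soat1 lie farthest above it.

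The genes around the pathway were read from 8 lists with 84 genes, all tested. Of these 40 were higher and 27 lower, where 32.3% and 33% of all tested genes were. All 8 genes listed as electron donors and helpers of the sterol enzymes rose (median log2 0.70), where 32.3% of tested genes did. That list also holds Lbr (log2 0.61), which is itself a sterol reductase, as Tm7sf2 is. Por, the reductase that feeds Sqle and Cyp51, stood at 374 ± 34.1 CPM with arsenic and 192 ± 8.24 CPM with vehicle (log2 0.96). The cytochromes b5 Cyb5a and Cyb5b, which pass electrons to sterol oxygenases, rose by log2 0.85 and 0.78, and Tmem97, a sterol-responsive membrane protein, by 0.76. Of 14 genes that use isoprenoids for other products 11 rose and none fell (median log2 0.26). Among them were Pdss1 (log2 1.02) and Pdss2 (0.75), which build the tail of ubiquinone, Cox10 (0.77), which makes heme O, and Rabggtb (0.57), which attaches geranylgeranyl groups to Rab proteins.

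Among genes for taking in and moving sterols more were lower than higher. Of 15 uptake and transport genes 10 fell and 4 rose (median log2 -0.33), where 33% of tested genes fell. Npc1l1, the cholesterol importer of the brush border, stood at 394 ± 9.30 CPM with arsenic and 861 ± 64.3 CPM with vehicle (SD, n = 4 each; log2 -1.13). Scarb1, a lipoprotein receptor, fell by 0.66 on the log2 scale, Npc2, which hands over sterol in lysosomes, by 0.58, and Gramd1b, which moves sterol from the plasma membrane, by 0.55. Of 9 efflux genes and LXR targets 5 fell and 2 rose (median log2 -0.24). Abcg5 and Abcg8, the paired pump that returns sterols to the lumen, fell by 0.84 and 0.96, Abcg1 by 0.49 and Nr1h2, an LXR gene, by 0.48 on the log2 scale. The 2 that rose were Nr1h3, the other LXR gene (log2 0.33, separated pools), and Abca1 (log2 0.24, overlapping pools).

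The other lists were divided, where 32.3% of all tested genes were higher and 33% lower, 65.3% in all. Of 15 genes of SREBP processing and sterol-regulated protein degradation 7 rose and 3 fell (median log2 0.12), with Vcp, the ATPase that pulls proteins out for degradation, at log2 0.69, its cofactor Nploc4 at 0.53 and Srebf1 at -0.85. Of 6 genes of acetyl-CoA supply 2 rose and 2 fell. Acss2 (log2 0.36) and Acly (log2 0.14), which make acetyl-CoA in the cytosol, were those that rose. Of 11 fatty acid synthesis genes 5 rose and 5 fell, with Me1, which supplies NADPH, at log2 0.80, the fatty acid synthase Fasn at 0.56, the carboxylase Acacb at 0.39 and the desaturase Scd2 at -0.45. Of 6 oxysterol genes 1 rose and 2 fell, the riser being the sterol sulfotransferase Sult2b1 (log2 1.55), with Cyp39a1 at -0.46 and Hsd3b7 at -0.21.

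**Figure D5:**
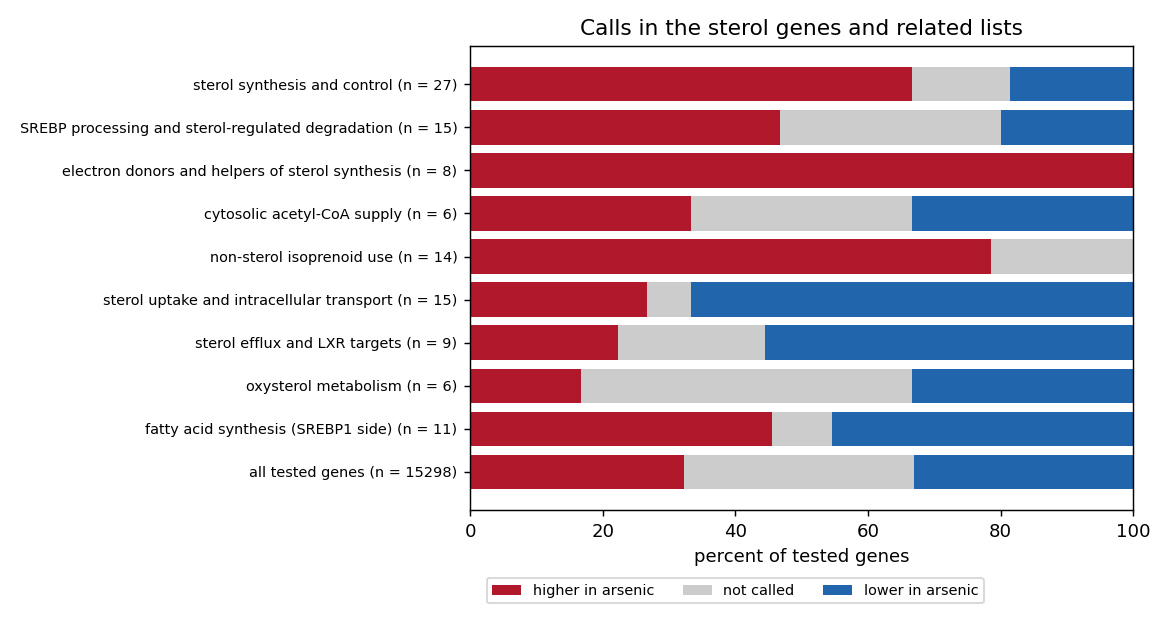
Bars give the percent of tested genes called higher in arsenic (red), not called (grey) and called lower in arsenic (blue) for the sterol genes, 8 related lists and all 15298 tested genes. The sterol genes are red for 18 of 27 and the helpers for 8 of 8, while the uptake list is blue for 10 of 15 and all tested genes split at 32.3% red and 33% blue.

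Markers of the cells present moved beside these changes, and their part in the sterol results was not tested. The counts of markers stand beside 32.3% higher and 33% lower over all tested genes. The 10 epithelial markers summed to 12090 to 13950 CPM in arsenic pools and 12831 to 14684 CPM in vehicle pools, with 4 higher and 4 lower. These similar sums hold opposite changes. Krt20 (log2 0.92), Fabp2 (0.69), Vil1 (0.33) and Slc15a1 (0.21) were higher. Lct (log2 -1.18), Epcam (-0.39), Alpi (-0.33) and Cdx2 (-0.18) were lower. Vil1, Cdx2 and Fabp2 had at least 34129, 3494 and 45458 counts in every library. All 7 markers of dividing cells were higher, at 1045 to 1107 CPM in arsenic pools and 624 to 726 CPM in vehicle pools. All 7 genes of the T and B cell list and 5 of 6 macrophage markers were lower. The macrophage list summed to 219 to 258 CPM in arsenic pools and 345 to 350 CPM in vehicle pools. The T and B cell list summed to 46.0 to 51.4 CPM in arsenic pools and 62.7 to 76.8 CPM in vehicle pools. Of that sum Ptprc, a gene of white blood cells in general, took 33.7 ± 1.51 CPM with arsenic and 52.1 ± 3.59 CPM with vehicle. Of 4 crypt stem cell markers 1 was higher and 3 lower (457 to 512 CPM with arsenic, 602 to 708 CPM with vehicle), and of 5 vessel markers 1 was higher and 4 lower (249.2 to 255 CPM with arsenic, 312 to 347 CPM with vehicle). Of 6 smooth muscle and fibroblast markers 3 were higher (3488 to 4127 CPM with arsenic, 3292 to 3643 CPM with vehicle), and of 5 neuron and glia markers 1 was lower (49.9 to 55.4 CPM with arsenic, 104 to 110.1 CPM with vehicle). That 1 was Ret, at 33.5 ± 1.42 CPM with arsenic and 88.0 ± 2.72 CPM with vehicle, and the other 4 were not called. Of 5 tested liver markers 3 were lower, at 14.6 to 18.2 CPM in arsenic pools and 45.9 to 63.6 CPM in vehicle pools, of which Serpina1a took 6.24 ± 0.892 CPM with arsenic and 43.8 ± 6.48 CPM with vehicle, while Cyp2e1 had at most 11 counts in any library. Of 6 pancreatic enzymes 1 was lower, and they were present in both groups, at 2604 to 5765 CPM in arsenic pools and 2972 to 5629 CPM in vehicle pools. Totals ran from 22630208 to 29417666 counts per library with arsenic and from 18786779 to 27369320 with vehicle.

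The authors' deposited table of the comparison gives the same sign as the fit above for all 27 genes. It marks 5 of them as changed at 1.5-fold, which are Mvk, Idi1, Msmo1, Acat1 and Soat1, and 1 of them, Acat1, at 2-fold. These marks are stricter than a cut at that fold with adjusted p below 0.05. Sqle (log2 0.804), Lss (0.763), Hsd17b7 (0.716), Fdps (0.681) and Cyp51 (0.67) carry no mark there, though each exceeds 1.5-fold (log2 0.585). Mvk, at log2 1.06, likewise carries no mark at 2-fold. By the authors' adjusted p 18 genes were higher and 3 lower, Ggps1 and Sc5d being those not passing there.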

How the data were processed

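The 8 libraries of mouse small intestine RNA were grouped by treatment label, and replicate numbers follow accession order and are names only. Per the labels, tissue RNA from TRIzol went into a stranded Illumina mRNA library kit. The submitters' processing notes list bcl2fastq 2.20, STAR 2.7.9a, DESeq2 1.34.0 and mm10, and the sources used here do not name the read counter, annotation or strand setting. The authors deposited raw counts per gene symbol, which entered every test. The normalized counts (a signal scaled per library) and regularized log2 values that the authors deposited were not used. The authors' deposited log2 fold changes and p-values were copied for the 27 genes.

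Genes passing filterByExpr (minimum count 10, minimum total 15) were TMM-scaled and tested with edgeR 4.0.16 in R 4.3.3 by its two-sided quasi-likelihood test with treatment as the single factor. The Benjamini-Hochberg adjustment ran across the 15298 genes kept, with a threshold of 0.05. SE is the log2 change divided by the root of its F statistic. CPM are TMM-scaled, and ratios used log2 CPM with a prior count of 2. Members, lists and motifs were chosen with earlier results of these data known. All 27 members were named, and of each other list up to 4 called genes with the largest absolute log2 change, except that some are not reported here. Ctsb, Arid4b, Akap9, Vps51, Acat3, Lbr, the other overlap partners, Nr1h3, Abca1, Ret, Serpina1a, Ptprc and the called epithelial markers were named after their values were seen. The reasons were overlap, likeness, direction of change or share of a marker sum. The motif shares among tested genes were added later. Positions and exon lengths came from GENCODE M21 on mm10. Totals ran from 18786779 to 29417666 counts per library. No pair of pools within a group was alike within counting error (chi-square over degrees of freedom at least 3.06), so each pool was 1 sample. Alternatives were other scalings, filters and tools (DESeq2 1.42.0, limma 3.58.1), another prior count, and leaving out libraries.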

Additional observations from a re-analysis of the deposited data

Results flagged for a closer look

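Sets of 4 pools were examined for 27 genes in each of 2 groups, 54 sets in all, and 2 held a pool that stood apart from the other 3 by more than Dixon's criterion, where chance alone marks about 1 in 20 sets. Ggps1 was lowest in vehicle replicate 4, at 23.0 CPM, while the other vehicle pools lay at 24.4 to 24.6 CPM. Soat1 was lowest in arsenic replicate 1, at 44.3 CPM, while the other arsenic pools lay at 46.6 to 47.0 CPM. Neither pool reached the values of the other group.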

How the results depend on the processing

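The 18 genes called higher were the same 18 under all 16 alternatives of scaling, filter, tool or left-out libraries. Of the 5 genes called lower, Acat1, Soat1 and Insig2 kept their call throughout. The number lower was 3 without a filter on low counts and in DESeq2, and with 1 library left out it ranged from 3 to 5, being 3 without arsenic replicate 4, vehicle replicate 2 or vehicle replicate 3; Ggps1 and Sc5d were those lost, at log2 changes of -0.15 and -0.11. The median log2 change of the 27 genes stayed between 0.25 and 0.31, and that of all tested genes between -0.05 and -0.01. Of 432 single gene values 416 kept direction and call, 12 lost the call, 1 gained it (Scap with upper-quartile scaling), and 3 reversed: Tm7sf2, never called, stood at log2 -0.0018 with upper-quartile scaling, from -0.035 (without vehicle replicate 4) to 0.090 with 1 library left out, and at -0.026 without both pools at the extremes of Xist and Y-linked counts. Left out in turn, libraries moved the differences in log2 ratio to 0.49 to 0.63 (Insig1/Insig2), -1.55 to -1.48 (Acat1/Acat2), -0.90 to -0.84 (Soat1/Soat2) and 1.04 to 1.21 (Srebf2/Srebf1). Without both pools they were 0.61, -1.50, -0.90 and 1.14, where an exact permutation test of 3 against 3 pools cannot go below p = 0.1. No paired analysis was possible because the labels give no replicate numbers shared between the groups. Nothing in the labels says whether the pools came from separate litters, so that p-values measure only the spread between pools.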

Other observations

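Within a group, the same pools were often highest or lowest among the 18 genes called higher. Among arsenic pools replicate 2 was highest for 14 of the 18 genes, and replicate 3 was lowest for 8 and replicate 4 for 9. Among vehicle pools replicate 1 was highest for 13 and replicate 3 lowest for 10. The pools differed in their sex makeup, with Xist at 9.82 CPM in arsenic replicate 3 and at 388 to 928 CPM in the other arsenic pools, and at 451 to 1392 CPM in vehicle pools. Vehicle replicate 4, which had the most Xist, was lowest for 7 of the 18 genes and highest for 1. These ranks were not counted over all tested genes, so they are not shown to be particular to the 18 genes. Whether sex makeup, depth or any handling step bears on the ranks was not tested.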
